A study of Mus musculus with 12 samples.

Results

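The genes described here are 39 genes of hepatic stellate cells and of the extracellular matrix of the liver: stellate cell and pericyte markers, contractile and cytoskeletal genes of activated cells, collagens, matrix glycoproteins, proteoglycans, metalloproteinases with their inhibitors, and lysyl oxidases. Of the 39 genes, 35 were measured, out of 17097 genes in all. A gene was represented by the probe set (the group of oligonucleotides that reads 1 transcript) annotated to it alone, and, where several were, by the one with the highest mean over the 12 arrays; 19 of the 35 had several. The annotation names no probe set for Fbn1, Spp1 and Thbs1, and Tagln only through a probe set shared with Pcsk7, so these 4 genes have no value.

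The livers came from adult mice and were profiled on 12 expression arrays in 6 groups of 2, to ask what loss of Socs2 changes in liver regeneration. The product of Socs2 restrains signalling from the growth hormone receptor. Socs2-null mice were compared with wildtype mice 24 h and 36 h after 2/3 hepatectomy, the surgical removal of most of the liver, and at 0 h in animals without an operation. Each array was hybridized with whole liver RNA of a pool of 3 animals, and every n given below is a number of pools. All groups share the C57BL/6 background, no group had a sham operation, and neither the making of the null allele nor the sex of the mice is given in the sources used here. Surgery and loss of liver mass therefore cannot be told apart in the comparisons with 0 h.

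Values are the authors' linear intensities. Changes are differences of log2(intensity + 16) ± standard error, and adjusted p-values are those of limma with Benjamini-Hochberg adjustment over all 17097 genes, called at a threshold of 0.05. Folds come from the same scale, which understates the change of dim genes. The brightest of 17 tag control probe sets on each array, 33.0 to 45.0, served as background, and array medians ran from 43.5 to 52.3. Of the 35 genes, 27 lay above background on every array, and 2, Pdgfra and Col1a2, on none. Socs2 itself read 23.2 to 29.5 on the 6 Socs2-null arrays, none of them above background, and 116 to 546 on the 6 wildtype arrays. With 2 arrays a group, precision is limited throughout.

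Hepatic stellate cells are the pericytes of the liver sinusoid. At rest they store retinoid as retinyl esters in lipid droplets. On injury they can lose this store, take on contractile filaments and deposit matrix, which in chronic disease becomes the scar of fibrosis. The sinusoid has no continuous basement membrane, but its perisinusoidal space holds type IV collagen, fibronectin and other components made by stellate, endothelial and parenchymal cells, and this matrix is remodelled during regeneration by metalloproteinases and their tissue inhibitors.

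After hepatectomy these genes split. The type IV collagen chains Col4a1 and Col4a2, the metalloproteinase Mmp14, the inhibitor Timp1, the actin gene Acta2, Fn1, Vim and Sparc rose at both times, while the stellate markers Lrat and Reln, the collagens Col14a1 and Col6a1 and the calcification inhibitor Mgp fell at both. Averaged over the genotypes, 20 of the 35 genes were called at 24 h against 0 h, 9 higher and 11 lower, where 43.2% of all genes were called (17.6% higher and 25.6% lower). At 36 h against 0 h 18 were called, 10 higher and 8 lower, where 33.8% of all genes were called (14.4% higher and 19.4% lower). The median log2 change of the 35 genes was -0.12 at 24 h and -0.00084 at 36 h, and that of all genes -0.063 and -0.048. Centring the arrays on their medians moved the median of all genes at 24 h to 0.038 and the split to 10 higher and 8 lower at 24 h. All arrays of the later time stood apart from all at 0 h for 17 of the 35 genes at 24 h and 16 at 36 h, where 40.5% and 36.0% of all genes did. Both time comparisons use the same 0 h arrays, so they are not independent of each other.

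**Figure D1:**
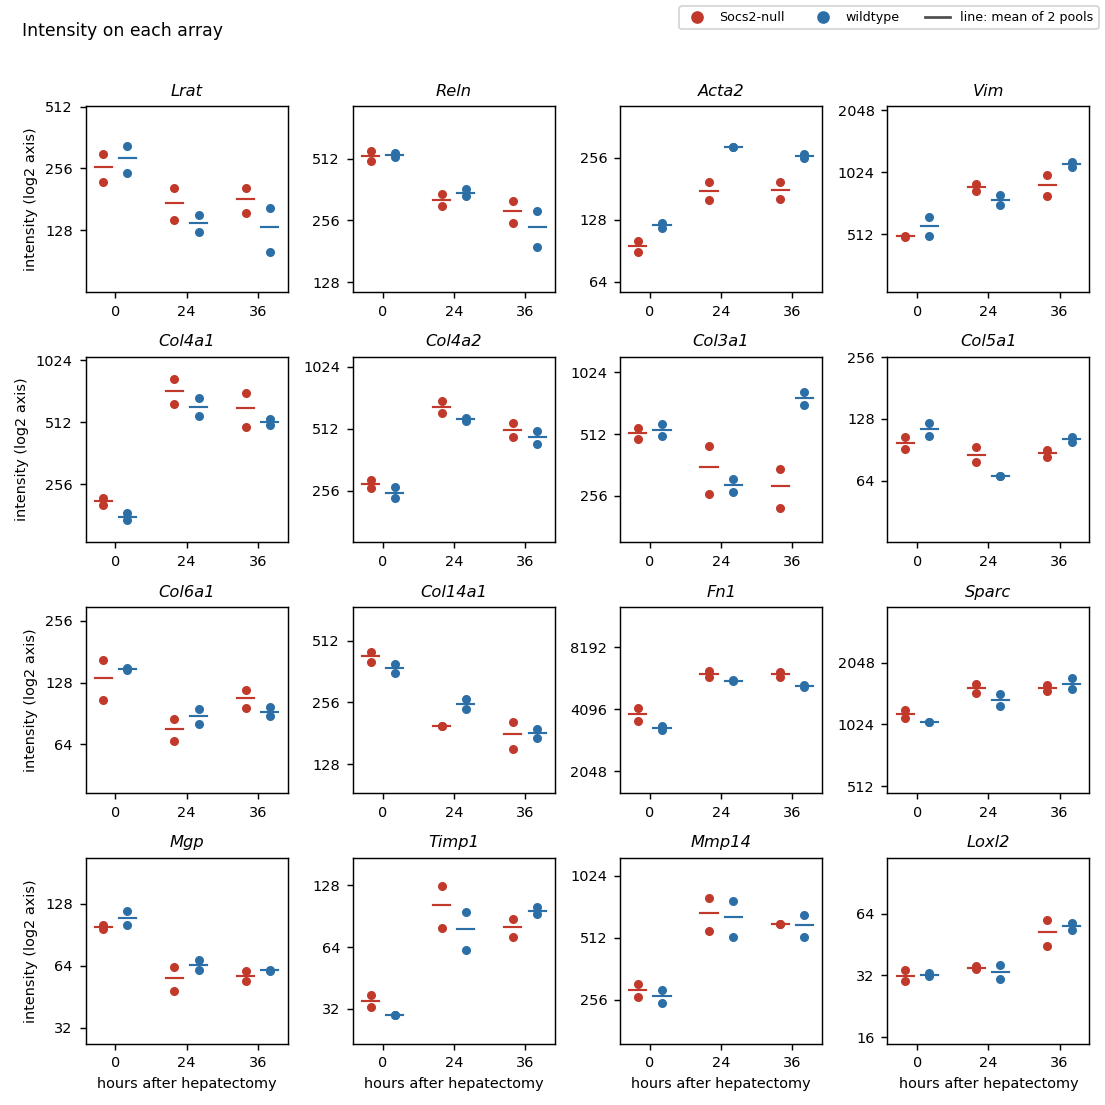
Intensity on each array (y, log2 axis, scale differing by panel) by hours after hepatectomy (x) for the 16 genes with the lowest adjusted p, with Socs2-null arrays left of wildtype arrays and a line at the mean of each 2 pools. Col4a1, for example, lies between 486 and 832 after hepatectomy, against 170.2 to 219.8 at 0 h, and the Acta2 points of Socs2-null liver lie under those of wildtype liver at each time.

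**Figure D2:**
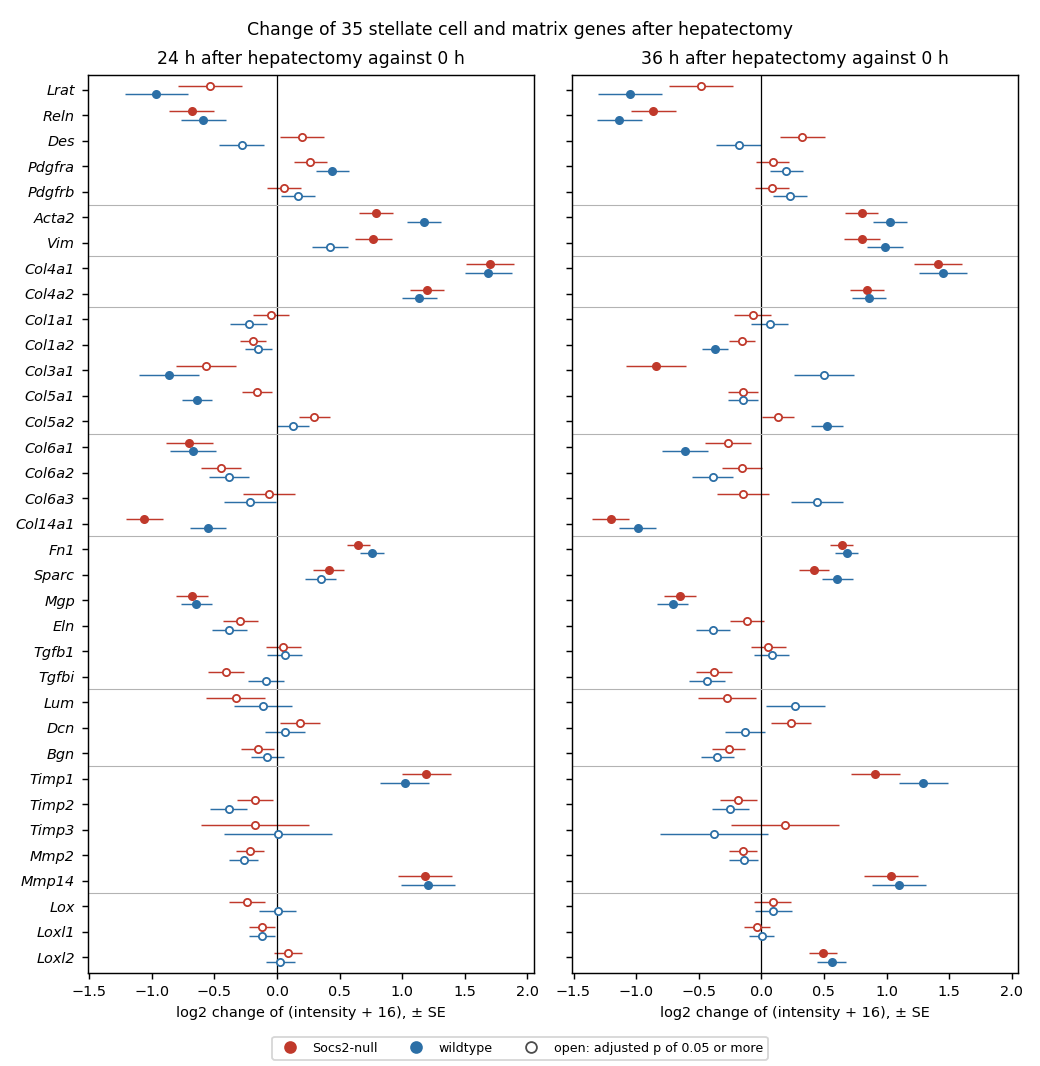
Log2 change of (intensity + 16) ± standard error against 0 h for each of the 35 genes, at 24 h in the left panel and 36 h in the right, with Socs2-null above wildtype and filled points for adjusted p under 0.05. Col4a1 and Col4a2 stand to the right of 0 and Col14a1, Reln and Mgp to the left in both genotypes at both times.

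Lrat and Reln, markers of resting stellate cells, fell. Lrat encodes the enzyme that esterifies retinol for storage. Its intensities were 219 and 299.8 in Socs2-null and 244 and 329 in wildtype liver at 0 h, 206 and 144 in Socs2-null and 125 and 151 in wildtype liver at 24 h, and 156 and 206 in Socs2-null and 165 and 99.8 in wildtype liver at 36 h. All 8 arrays after hepatectomy lay below all 4 arrays at 0 h, and the genotypes overlapped at each time. The log2 change of Lrat was -0.75 ± 0.18 at 24 h and -0.77 ± 0.18 at 36 h (adjusted p = 0.00652 and 0.00763), a level 1.68-fold and 1.70-fold lower. Reln encodes reelin, a secreted glycoprotein that in liver marks stellate cells. Reln gave 498 and 555 in Socs2-null and 522 and 544 in wildtype liver at 0 h, 300.04 and 345 in Socs2-null and 364 and 335 in wildtype liver at 24 h, and 317 and 249.98 in Socs2-null and 286 and 191 in wildtype liver at 36 h. Again the arrays after hepatectomy lay below those at 0 h, with the genotypes overlapping, and the log2 change was -0.63 ± 0.13 at 24 h and -1.0 ± 0.13 at 36 h (adjusted p = 0.00232 and 0.000187). Because the RNA came from whole liver, fewer cells of a type and less RNA per cell cannot be told apart.

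Not every stellate marker moved in this way. Desmin (Des), an intermediate filament protein of rodent stellate cells and of muscle, ranged over 54.2 to 107 on the 12 arrays, and its log2 changes of -0.042 ± 0.13 and 0.074 ± 0.13 did not pass the test. Pdgfrb, the receptor through which platelet-derived growth factor drives stellate cell division, ranged over 55.5 to 83.8 and stood at 0.11 ± 0.096 and 0.16 ± 0.096, which did not pass either. Pdgfra, the other receptor of this growth factor family, read 15.5 to 31.2 and was under background on all 12 arrays; the test called its 24 h values (adjusted p = 0.0102), but no fold is given at such levels.

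A wider list of 15 stellate markers, 14 of them measured and 4 of these already described (Lrat, Reln, Des and Pdgfrb), had 1 higher and 6 lower at 24 h, and 2 higher and 8 lower at 36 h, or 50% and 71.4% called against 43.2% and 33.8% of all genes. Colec11, a collectin, gave 240.3 and 283 in Socs2-null and 277 and 259 in wildtype liver at 0 h, 81.0 and 108 in Socs2-null and 130.3 and 115 in wildtype liver at 24 h, and 108 and 70.2 in Socs2-null and 81.0 and 60.2 in wildtype liver at 36 h. It fell, with a log2 change of -1.18 ± 0.14 at 24 h and -1.57 ± 0.14 at 36 h (adjusted p = 7.97e-05 and 1.65e-05). Angptl6, an angiopoietin-like secreted protein, changed by -0.70 ± 0.11 and -1.11 ± 0.11 (adjusted p = 0.000533 and 3.91e-05). Lhx2, a transcription factor associated with the resting state, lay above background on no array at 24 h and on all 4 at 0 h, at least 1.34-fold lower (adjusted p = 0.000154). The genes of this list that rose were Hgf and, at 36 h, Cygb, and these 2 were named after their values were seen. Hgf, which encodes hepatocyte growth factor, changed by 0.28 ± 0.084 at 24 h and 0.46 ± 0.084 at 36 h (adjusted p = 0.0202 and 0.00163). At 0 h Hgf lay above background on 1 of 2 arrays in each genotype, so its changes start near background. Cygb, the haem protein cytoglobin, changed by 0.33 ± 0.090 at 36 h (adjusted p = 0.0153).

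Both measured genes of the contractile and cytoskeletal apparatus of activated cells rose. Acta2 encodes alpha smooth muscle actin, the usual marker of activated stellate cells and of vascular smooth muscle. Its intensities were 89.4 and 101 in Socs2-null and 117 and 124 in wildtype liver at 0 h, 195 and 159 in Socs2-null and 291 and 291 in wildtype liver at 24 h, and 161 and 195 in Socs2-null and 256 and 267 in wildtype liver at 36 h. All arrays after hepatectomy lay above all arrays at 0 h, and within each time both Socs2-null arrays lay below both wildtype arrays. The log2 change was 0.98 ± 0.096 at 24 h and 0.91 ± 0.096 at 36 h (adjusted p = 3.2e-05 and 5.75e-05), or 1.97-fold and 1.88-fold. These values come from a probe set of a type that can also read related transcripts. The other Acta2 probe set lay above background on 1 array and had log2 changes of -0.22 at 24 h and 0.03 at 36 h (adjusted p = 0.181 and 0.863). Actg2, the enteric smooth muscle actin, was dim, with 0 of 4 arrays above background at 0 h, 2 of 4 at 24 h and 3 of 4 at 36 h. The test called it higher at both times (adjusted p = 0.00435 and 0.0128), but its level stayed too near background for a fold. Whether the Acta2 signal includes other actin transcripts was not tested.

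The Acta2 promoter is shown because the gene had the lowest adjusted p outside the collagens and Fn1 and because its SMAD element is a motif of TGF-beta signalling. The window, from RefSeq on GRCm38.p6, runs from 250 bases before to 50 after the start site on the minus strand at chr19:34255324-34255623. Capitals mark the single match to the SMAD element CAGACA, which stands on the opposite strand at bases -236 to -231 from the start site.
Acta2: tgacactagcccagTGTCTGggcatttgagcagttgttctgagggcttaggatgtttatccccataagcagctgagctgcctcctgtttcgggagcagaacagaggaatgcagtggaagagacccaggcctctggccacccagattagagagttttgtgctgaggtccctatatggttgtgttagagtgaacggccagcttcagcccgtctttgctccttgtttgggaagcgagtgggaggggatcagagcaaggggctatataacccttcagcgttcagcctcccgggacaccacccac
This window held no exact match to the AP-1 motif TGANTCA, the TATA box TATAAA or the GC box GGGCGG. For the CArG box, the serum response element of smooth muscle genes, only exact matches to CC, then 6 bases of A or T, then GG were searched, and none was found; elements that differ from it by a base, which the Acta2 promoter is known to carry, were not searched. A match is a description of these letters only.

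Vimentin (Vim), the intermediate filament protein of mesenchymal cells, gave 503 and 498 in Socs2-null and 618 and 502 in wildtype liver at 0 h, 897 and 833 in Socs2-null and 796 and 713 in wildtype liver at 24 h, and 789 and 992 in Socs2-null and 1090.2 and 1155 in wildtype liver at 36 h. Arrays after hepatectomy lay above those at 0 h. The genotypes did not overlap at 24 h, where Socs2-null was higher, nor at 36 h, where it was lower, and neither difference passed the test (adjusted p = 0.752 and 0.748). Vim rose by a log2 change of 0.60 ± 0.10 at 24 h and 0.90 ± 0.10 at 36 h (adjusted p = 0.000926 and 0.0001).

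The type IV collagen pair had the lowest adjusted p of the set at 24 h. Col4a1 and Col4a2 encode the chains of the most widespread basement membrane collagen network. Col4a1 gave 203 and 219.8 in Socs2-null and 184 and 170.2 in wildtype liver at 0 h, 627 and 832 in Socs2-null and 669 and 549 in wildtype liver at 24 h, and 714 and 486 in Socs2-null and 495 and 529 in wildtype liver at 36 h. Every array after hepatectomy was above every array at 0 h, and the genotypes overlapped at 24 h and 36 h, while at 0 h Socs2-null was higher. The log2 change of Col4a1 was 1.69 ± 0.13 at 24 h and 1.43 ± 0.13 at 36 h (adjusted p = 9.04e-06 and 2.64e-05), a level 3.24-fold and 2.70-fold higher. Col4a2 gave 265 and 287 in Socs2-null and 265 and 235 in wildtype liver at 0 h, 612 and 699 in Socs2-null and 576 and 561 in wildtype liver at 24 h, and 547 and 468 in Socs2-null and 433 and 502 in wildtype liver at 36 h. The groups again stood apart by time. Its log2 change was 1.17 ± 0.096 at 24 h and 0.85 ± 0.096 at 36 h (adjusted p = 1.1e-05 and 9.02e-05). Within each genotype the changes were close: for Col4a1 at 24 h they were 1.70 ± 0.19 in Socs2-null and 1.69 ± 0.19 in wildtype liver, and the difference between them did not pass the test (adjusted p = 1.0).

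These 2 genes lie head to head and are read in opposite directions from a shared promoter, which is why their sequences are shown together. On GRCm38.p6 the RefSeq windows are chr8:11312777-11313076 on the minus strand for Col4a1 and chr8:11312555-11312854 on the plus strand for Col4a2, each from 250 bases before to 50 after the start site. The start sites lie 21 bases apart. By these annotations each start lies inside the first bases of the other gene, so the transcripts overlap there. The bases that both windows hold all lie within the first 50 of 1 or both transcripts. Capitals mark the 78 bases that both windows hold, as reverse complements of each other.
Col4a1: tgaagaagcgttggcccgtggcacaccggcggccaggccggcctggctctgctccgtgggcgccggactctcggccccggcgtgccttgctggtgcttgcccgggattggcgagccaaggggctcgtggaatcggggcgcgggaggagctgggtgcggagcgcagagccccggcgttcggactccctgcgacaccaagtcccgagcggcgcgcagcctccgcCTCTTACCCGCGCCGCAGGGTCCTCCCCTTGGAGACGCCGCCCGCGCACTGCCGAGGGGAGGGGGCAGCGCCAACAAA
Col4a2: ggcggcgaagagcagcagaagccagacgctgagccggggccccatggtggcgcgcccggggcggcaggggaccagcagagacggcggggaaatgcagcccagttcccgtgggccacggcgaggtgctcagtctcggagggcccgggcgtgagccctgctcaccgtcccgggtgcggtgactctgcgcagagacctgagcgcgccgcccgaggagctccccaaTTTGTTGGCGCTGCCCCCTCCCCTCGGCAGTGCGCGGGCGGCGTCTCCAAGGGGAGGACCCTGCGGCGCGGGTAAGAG
The shared bases are 73.1% G or C. The Col4a1 window held 1 GC box (GGGCGG, either strand) and the Col4a2 window 3, of which 1 lies at the same genomic bases as that of Col4a1. The measured genes of the set had 23 windows, 1 gene (Col6a2) having several. Of these windows 16 held a GC box, 6 a SMAD element, 2 a TATA box, 1 an AP-1 motif and 0 an exact CArG box. Each motif was searched on both strands and counted whether or not it overlapped another motif. Of all 32851 windows in the RefSeq table, 35.7% held a GC box, 21.0% a SMAD element, 13.6% a TATA box, 7.81% an AP-1 motif and 1.63% a CArG box.

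Of 9 other basement membrane genes measured, 1 was higher and 2 lower at 24 h, and 2 were higher and 2 lower at 36 h. That is 33.3% and 44.4% called, against 43.2% and 33.8% of all genes. Nid1, whose product nidogen joins laminin to type IV collagen, gave 181 and 180.2 in Socs2-null and 163 and 158 in wildtype liver at 0 h, 378 and 505 in Socs2-null and 393 and 341 in wildtype liver at 24 h, and 870.3 and 584 in Socs2-null and 380.4 and 1011 in wildtype liver at 36 h. All arrays after hepatectomy were above those at 0 h, with a wide gap between the wildtype arrays at 36 h. The log2 change of Nid1 was 1.16 ± 0.26 at 24 h and 1.87 ± 0.26 at 36 h (adjusted p = 0.00504 and 0.00045). The laminin chain gene Lamc1 rose at 36 h, by 0.31 ± 0.084 (adjusted p = 0.0165), and stood at 0.19 ± 0.084 at 24 h (adjusted p = 0.0942). The heparan sulphate proteoglycan gene Agrn fell, with a log2 change of -0.48 ± 0.12 and -0.37 ± 0.12 (adjusted p = 0.00707 and 0.0317), and the collagen XVIII gene Col18a1 did too, with -0.35 ± 0.089 and -0.26 ± 0.089 (adjusted p = 0.00922 and 0.0458).

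The fibrillar collagens are the load-bearing collagens of scar and of portal tracts. Of their 5 genes 0 were higher and 2 lower at 24 h, and 1 higher and 1 lower at 36 h. The share called was 40.0% at each time, against 43.2% and 33.8% of all genes. Col3a1, of type III collagen, gave 486 and 545 in Socs2-null and 571 and 503 in wildtype liver at 0 h, 447 and 261 in Socs2-null and 267 and 309 in wildtype liver at 24 h, and 225 and 347 in Socs2-null and 712 and 822 in wildtype liver at 36 h. At 24 h all 4 arrays lay below the 4 arrays at 0 h, a log2 change of -0.72 ± 0.17 (adjusted p = 0.00598). At 36 h the Socs2-null arrays were below and the wildtype arrays above their 0 h arrays, and the average of -0.17 ± 0.17 did not pass the test (adjusted p = 0.466). The mean of all probe sets of Col3a1 gave -0.37 at 24 h (adjusted p = 0.061).

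Col5a1, a type V chain that starts fibril assembly, gave 91.3 and 105 in Socs2-null and 122 and 106 in wildtype liver at 0 h, 93.1 and 78.8 in Socs2-null and 67.5 and 67.3 in wildtype liver at 24 h, and 90.5 and 83.7 in Socs2-null and 98.7 and 105 in wildtype liver at 36 h. The arrays at 24 h and 0 h overlapped, the wildtype arrays at 24 h being the lowest. It fell at 24 h, with a log2 change of -0.40 ± 0.085 (adjusted p = 0.00314), a call that the mean of all its probe sets did not give (-0.08, adjusted p = 0.359), and stood at -0.14 ± 0.085 at 36 h (adjusted p = 0.218). Its partner chain Col5a2 ranged over 69.8 to 122 and rose at 36 h by 0.33 ± 0.090 (adjusted p = 0.0155), with overlapping arrays. For type I collagen, Col1a1 ranged over 35.6 to 65.1, near background, and stood at -0.14 ± 0.10 at 24 h and -0.0018 ± 0.10 at 36 h, neither past the test. Col1a2 read 20.3 to 37.1, under background on all arrays, and although the test called it lower at 36 h (adjusted p = 0.0189) no fold is given.

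Of the 4 genes of collagen VI and of the fibril-associated collagen XIV, 3 fell at 24 h and 2 at 36 h. Among all genes 25.6% were called lower at 24 h and 19.4% at 36 h. Col14a1, whose product binds the surface of collagen fibrils, gave 404 and 453 in Socs2-null and 391.8 and 357 in wildtype liver at 0 h, 196 and 197 in Socs2-null and 265 and 236 in wildtype liver at 24 h, and 205 and 152 in Socs2-null and 189.8 and 173 in wildtype liver at 36 h. All 8 arrays after hepatectomy lay below the 4 arrays at 0 h. The log2 change of Col14a1 was -0.81 ± 0.10 at 24 h and -1.09 ± 0.10 at 36 h (adjusted p = 0.000163 and 2.97e-05), or 1.75-fold and 2.13-fold lower. At 24 h the change was -1.06 ± 0.15 in Socs2-null and -0.55 ± 0.15 in wildtype liver, a difference that did not pass the test (adjusted p = 1.0). Col6a1, a chain of the beaded filaments of collagen VI, gave 166 and 105 in Socs2-null and 147 and 151 in wildtype liver at 0 h, 66.6 and 84.8 in Socs2-null and 95.0 and 80.7 in wildtype liver at 24 h, and 118 and 96.7 in Socs2-null and 97.01 and 87.8 in wildtype liver at 36 h. Its arrays at 24 h lay below those at 0 h, while those at 36 h overlapped them. Col6a1 fell, with a log2 change of -0.68 ± 0.13 at 24 h and -0.44 ± 0.13 at 36 h (adjusted p = 0.00167 and 0.0234), the call at 36 h being lost without any 1 of 5 arrays, Socs2-null 0 h replicate 1, Socs2-null 36 h replicate 2, wildtype 0 h replicates 1 and 2 or wildtype 36 h replicate 2 (adjusted p from 0.0604 to 0.0875). Col6a2 fell at 24 h, with a log2 change of -0.42 ± 0.11 (adjusted p = 0.0121), and Col6a3 stood at -0.14 ± 0.15 and 0.15 ± 0.15, not past the test.

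Genes of collagen folding and maturation were mostly higher after hepatectomy. Of 11 measured, 7 were higher and 1 lower at 24 h, and 8 higher and 1 lower at 36 h, with median log2 changes of 0.33 and 0.46. Among all genes 17.6% were higher and 25.6% lower at 24 h, and 14.4% higher and 19.4% lower at 36 h. Serpinh1, the collagen-specific chaperone of the endoplasmic reticulum, gave 130.4 and 112 in Socs2-null and 144 and 136 in wildtype liver at 0 h, 384 and 262 in Socs2-null and 256 and 316 in wildtype liver at 24 h, and 279 and 386 in Socs2-null and 457 and 309 in wildtype liver at 36 h. Its changes were 1.11 ± 0.16 and 1.33 ± 0.16 (adjusted p = 0.000298 and 0.000127). P4ha2, a catalytic subunit of prolyl hydroxylase, rose by 0.67 ± 0.10 and 0.57 ± 0.10 (adjusted p = 0.000459 and 0.00151). P4hb, the shared subunit of that enzyme and a general protein disulphide isomerase of secretory cells such as hepatocytes, rose by 0.49 ± 0.060 and 0.59 ± 0.060 (adjusted p = 0.000126 and 4.54e-05). The single gene that fell, Pcolce, encodes the enhancer of procollagen cleavage outside the cell and changed by -0.64 ± 0.082 and -0.65 ± 0.082 (adjusted p = 0.00016 and 0.000177).

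Among the matrix glycoproteins Fn1 and Sparc rose and Mgp fell. Fn1 encodes fibronectin, which hepatocytes secrete into plasma and mesenchymal cells lay down as matrix. It was bright, with 3607 and 4150.0 in Socs2-null and 3256 and 3388 in wildtype liver at 0 h, 6305 and 5870.4 in Socs2-null and 5659 and 5607 in wildtype liver at 24 h, and 5866 and 6233 in Socs2-null and 5402 and 5271 in wildtype liver at 36 h. The 8 arrays after hepatectomy lay above the 4 at 0 h, and both Socs2-null arrays lay above both wildtype arrays at each time. The log2 change of Fn1 was 0.71 ± 0.066 at 24 h and 0.66 ± 0.066 at 36 h (adjusted p = 2.43e-05 and 3.99e-05). Sparc encodes a collagen-binding protein that governs matrix assembly. Sparc gave 1095 and 1207 in Socs2-null and 1055 and 1050.5 in wildtype liver at 0 h, 1609.8 and 1462 in Socs2-null and 1441 and 1254 in wildtype liver at 24 h, and 1497 and 1591 in Socs2-null and 1716 and 1516 in wildtype liver at 36 h. Arrays after hepatectomy lay above those at 0 h, and Sparc rose by 0.38 ± 0.086 at 24 h and 0.51 ± 0.086 at 36 h (adjusted p = 0.00451 and 0.000981).

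Mgp, an inhibitor of calcification, gave 96.2 and 101 in Socs2-null and 102 and 118 in wildtype liver at 0 h, 48.5 and 63.5 in Socs2-null and 60.8 and 68.1 in wildtype liver at 24 h, and 60.1 and 54.2 in Socs2-null and 60.7 and 61.1 in wildtype liver at 36 h. All arrays after hepatectomy lay below those at 0 h. Its log2 change was -0.66 ± 0.088 at 24 h and -0.68 ± 0.088 at 36 h (adjusted p = 0.000199 and 0.000217). The elastin gene Eln, 53.8 to 101 over all arrays, fell at 24 h, with a log2 change of -0.34 ± 0.097 (adjusted p = 0.0165) and stood at -0.25 ± 0.097 at 36 h (adjusted p = 0.069). Tgfbi, a secreted integrin-binding protein that TGF-beta induces, ranged over 235 to 393 and fell at 36 h, with a log2 change of -0.41 ± 0.10 (adjusted p = 0.0103). This fall was seen on 1 probe set only, of a type that can also read related transcripts. The other Tgfbi probe set, above background on all 12 arrays, changed by -0.0093 at 36 h.

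Tgfb1, the ligand that drives matrix production in stellate cells, read 30.1 to 48.5, with 7 of its 12 arrays above background, and stood at 0.056 ± 0.097 and 0.070 ± 0.097, which did not pass. Of 14 other measured genes of the TGF-beta pathway 2 were higher and 2 lower at 24 h, and 1 higher and 1 lower at 36 h. These 28.6% and 14.3% called compare with 43.2% and 33.8% of all genes. Skil, a SMAD co-repressor that the pathway itself induces, gave 159 and 188 in Socs2-null and 165 and 143 in wildtype liver at 0 h, 411 and 349.9 in Socs2-null and 299 and 262 in wildtype liver at 24 h, and 348 and 399 in Socs2-null and 338 and 374 in wildtype liver at 36 h. It rose by 0.93 ± 0.10 at 24 h and 1.08 ± 0.10 at 36 h (adjusted p = 6.04e-05 and 2.71e-05). Smad3, a signal transducer, fell at 24 h, with a log2 change of -0.32 ± 0.10 (adjusted p = 0.0237), and Smad4, its common partner, at 36 h, with -0.29 ± 0.095 (adjusted p = 0.0385). Tgfb2 was under background on all arrays.

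The small leucine-rich proteoglycans, which bind collagen fibrils and TGF-beta, had 1 of 3 genes called, at 36 h. The shares of 0.0% at 24 h and 33.3% at 36 h stand beside 43.2% and 33.8% of all genes. Decorin (Dcn) ranged over 1885 to 3078 and stood at 0.12 ± 0.11 and 0.056 ± 0.11. Lumican (Lum) ranged over 78.8 to 214 and stood at -0.22 ± 0.17 at 24 h and -0.00084 ± 0.17 at 36 h. Neither gene passed the test in any comparison. Biglycan (Bgn) ranged over 563 to 821 and fell at 36 h, with a log2 change of -0.31 ± 0.092 (adjusted p = 0.025), after -0.12 ± 0.092 at 24 h (adjusted p = 0.335).

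Of the enzymes and inhibitors of matrix turnover, Mmp14 and Timp1 rose at both times. Mmp14 encodes the membrane-bound collagenase that also activates the secreted gelatinase Mmp2. Mmp14 gave 306 and 262 in Socs2-null and 285 and 246 in wildtype liver at 0 h, 551 and 796 in Socs2-null and 769 and 518 in wildtype liver at 24 h, and 597 and 599 in Socs2-null and 516 and 662 in wildtype liver at 36 h. The arrays after hepatectomy lay above those at 0 h, with a spread between pools at 24 h in both genotypes. Its log2 change was 1.19 ± 0.15 at 24 h and 1.07 ± 0.15 at 36 h (adjusted p = 0.000148 and 0.00037), or 2.29-fold and 2.10-fold. Timp1 encodes an inhibitor of secreted metalloproteinases that injured liver induces. Timp1 gave 32.6 and 37.3 in Socs2-null and 29.8 and 29.9 in wildtype liver at 0 h, 79.1 and 126 in Socs2-null and 62.0 and 94.8 in wildtype liver at 24 h, and 72.1 and 88.1 in Socs2-null and 92.9 and 100 in wildtype liver at 36 h. All 8 arrays after hepatectomy were above background, against 1 of the 4 at 0 h, from Socs2-null liver. Timp1 rose by a log2 change of 1.11 ± 0.14 at 24 h and 1.10 ± 0.14 at 36 h (adjusted p = 0.000136 and 0.000175), and in wildtype liver it was at least 1.60-fold and 1.93-fold higher than at 0 h.

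The remaining members of this class were lower or did not pass. Timp2 ranged over 93.3 to 142 and fell at 24 h, with a log2 change of -0.28 ± 0.10 (adjusted p = 0.0438), a direction that 3 of its 4 other probe sets shared and the last, under background on every array, did not. Mmp2 ranged over 26.0 to 41.5, above background on 2 of 12 arrays, and was called lower at 24 h (adjusted p = 0.0307). Timp3, an inhibitor bound to the matrix, varied widely between pools of a group: its arrays read 157 and 314 in Socs2-null and 390.4 and 177 in wildtype liver at 24 h and 434 and 193 in Socs2-null and 205 and 192 in wildtype liver at 36 h. Its standard error of 0.30 was the widest of the set in the averaged time comparisons, and its changes of -0.084 and -0.094 did not pass.

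A list of other matrix proteases and plasminogen system genes had 11 measured, of which 2 were higher and 4 lower at 24 h and 2 higher and 1 lower at 36 h. The shares called were 54.5% and 27.3%, against 43.2% and 33.8% of all genes, and the 18.2% higher at 24 h stands beside 17.6% of all genes. Adamts1, a secreted proteoglycan-cleaving protease, gave 96.5 and 74.9 in Socs2-null and 71.5 and 71.3 in wildtype liver at 0 h, 154 and 299.7 in Socs2-null and 309 and 293 in wildtype liver at 24 h, and 342 and 146 in Socs2-null and 137 and 177 in wildtype liver at 36 h. It rose by 1.53 ± 0.25 and 1.11 ± 0.25 (adjusted p = 0.00101 and 0.00754). Adam17, a membrane sheddase, rose at 24 h by 0.40 ± 0.084 (adjusted p = 0.00329), and Mmp12, a macrophage elastase, fell at 24 h, with a log2 change of -0.63 ± 0.14 (adjusted p = 0.00406). Plat, a plasminogen activator, lay above background on all 4 arrays at 36 h and on none at 0 h, at least 1.32-fold higher (adjusted p = 0.0184), though 1 array at 36 h overlapped those at 0 h.

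Of the 3 lysyl oxidases, which cross-link collagen and elastin, 0 were called at 24 h and 1, Loxl2, at 36 h. Among all genes 43.2% and 33.8% were called. Loxl2 gave 30.0 and 33.9 in Socs2-null and 32.9 and 31.7 in wildtype liver at 0 h, 35.5 and 34.4 in Socs2-null and 35.9 and 30.7 in wildtype liver at 24 h, and 44.3 and 59.2 in Socs2-null and 57.5 and 53.2 in wildtype liver at 36 h. No array at 0 h and 1 array at 24 h was above background, against all 4 at 36 h, where the arrays stood apart from both earlier times. Its log2 change was 0.058 ± 0.081 at 24 h and 0.53 ± 0.081 at 36 h (adjusted p = 0.587 and 0.000583), at least 1.21-fold higher than at 0 h. Between 36 h and 24 h Loxl2 was the 1 gene of the set called, at 0.47 ± 0.081 (adjusted p = 0.0487), where 0.287% of all genes were called, and this call was lost without any array other than Socs2-null 24 h replicate 1 or Socs2-null 36 h replicate 1 (adjusted p from 0.0594 to 0.134). Lox ranged over 39.4 to 65.1 and Loxl1 over 38.4 to 50.3, and neither passed the test in any comparison.

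Receptors for matrix and the ligands of the platelet-derived growth factor receptors were taken as further lists. Of 11 matrix receptors 3 were higher and 3 lower at 24 h, and 4 higher and 1 lower at 36 h, or 54.5% and 45.5% called against 43.2% and 33.8% of all genes. Itga8, an integrin chain of stellate cells, fell, with a log2 change of -0.90 ± 0.096 and -0.71 ± 0.096 (adjusted p = 5.34e-05 and 0.000272). At 24 h it lay above background on 1 of 2 arrays in each genotype, so the first change ends near background. The integrin chain Itgb3 was called higher at 24 h (adjusted p = 0.000185), with all 4 arrays above background at 24 h against 1 of 4 at 0 h, so its log2 change of 0.97 ± 0.13 is measured against a group at background. Itgav, which pairs with Itgb3, rose by 0.36 ± 0.088 at 24 h (adjusted p = 0.00673), and the hyaluronan receptor gene Cd44 by 0.50 ± 0.12 (adjusted p = 0.00697). Of 3 measured ligand genes, Pdgfc rose by 1.09 ± 0.17 at 24 h and 0.54 ± 0.17 at 36 h (adjusted p = 0.000458 and 0.0274). Pdgfd fell, with a log2 change of -0.49 ± 0.079 and -0.40 ± 0.079 (adjusted p = 0.000646 and 0.00275), and Pdgfb stood at -0.088 ± 0.065 and -0.044 ± 0.065, which did not pass.

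**Figure D3:**
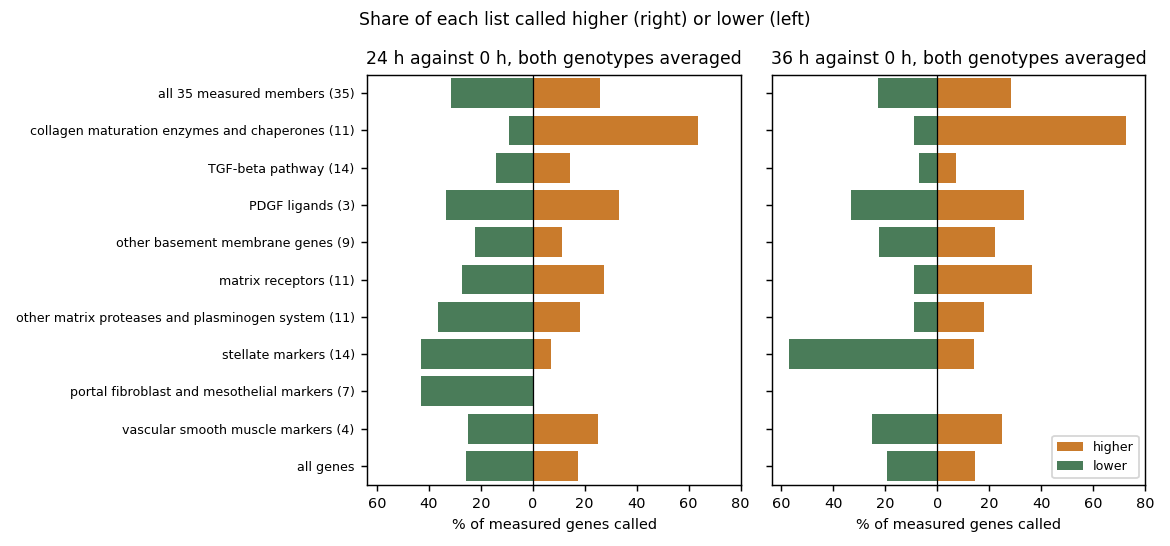
Share of the measured genes of each list called higher (right of 0) or lower (left of 0), in percent, at 24 h in the left panel and 36 h in the right, both genotypes averaged, with the number measured in brackets and all genes in the bottom row. Collagen maturation genes reach 63.6% and 72.7% higher and stellate markers 42.9% and 57.1% lower, against 17.6% and 14.4% higher and 25.6% and 19.4% lower for all genes.

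Within single genotypes fewer genes were called, each test setting 2 arrays against 2. At 24 h 12 genes of the set were called in Socs2-null liver, 8 higher and 4 lower, where 24.2% of all genes were called (10.8% higher and 13.5% lower), and 14 in wildtype liver, 7 higher and 7 lower, where 25.8% were (10.2% higher and 15.6% lower). Centring on array medians gave 9 higher and 4 lower in wildtype liver. It also moved the median log2 change of all genes in that comparison from -0.080 to 0.041, so the moved split is not particular to this set. At 36 h 13 were called in Socs2-null liver, 9 higher and 4 lower, where 20.0% of all genes were called (9.84% higher and 10.1% lower), and 16 in wildtype liver, 10 higher and 6 lower, where 15.2% were (5.69% higher and 9.5% lower). Col4a1, Col4a2, Acta2, Fn1, Mmp14 and Timp1 were called higher, and Reln, Col14a1 and Mgp lower, in both genotypes at both times. Some of these calls rest on single arrays: that of Col14a1 in wildtype liver at 24 h was lost without any of the 4 wildtype arrays compared (adjusted p from 0.0515 to 0.131), and that of Reln likewise (adjusted p from 0.0914 to 0.159). The wildtype counts fell too, at both times without either wildtype 0 h array and at 24 h without either wildtype 24 h array. Such a fit leaves 1 array in a group. The share of all genes called in it was not set beside these counts, so the drop is not read as a trait of this set. No gene of the set passed the test of a genotype difference in the 24 h or in the 36 h response. Of all genes 0.0% and 0.00585% were called. At unadjusted p under 0.05 there were 2 and 1 of the 35 genes, and 646 and 640 of all 17097 genes.

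Between the genotypes no gene of the set was called in limma at 0 h, 24 h or 36 h or averaged over the times, where 0.0%, 0.0117%, 0.0234% and 0.0292% of all genes were called. At unadjusted p under 0.05 there were 3, 5, 7 and 7 of the 35 genes of the set. Among all 17097 genes there were 847, 1408, 1101 and 1750. The 2 Socs2-null arrays did not overlap the 2 wildtype arrays for 14 genes at 0 h, 14 at 24 h and 11 at 36 h, where 41.8%, 34.2% and 32.9% of all genes did not overlap. A p that misses the threshold with 2 arrays a group does not show that the genotypes are alike.

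**Figure D4:**
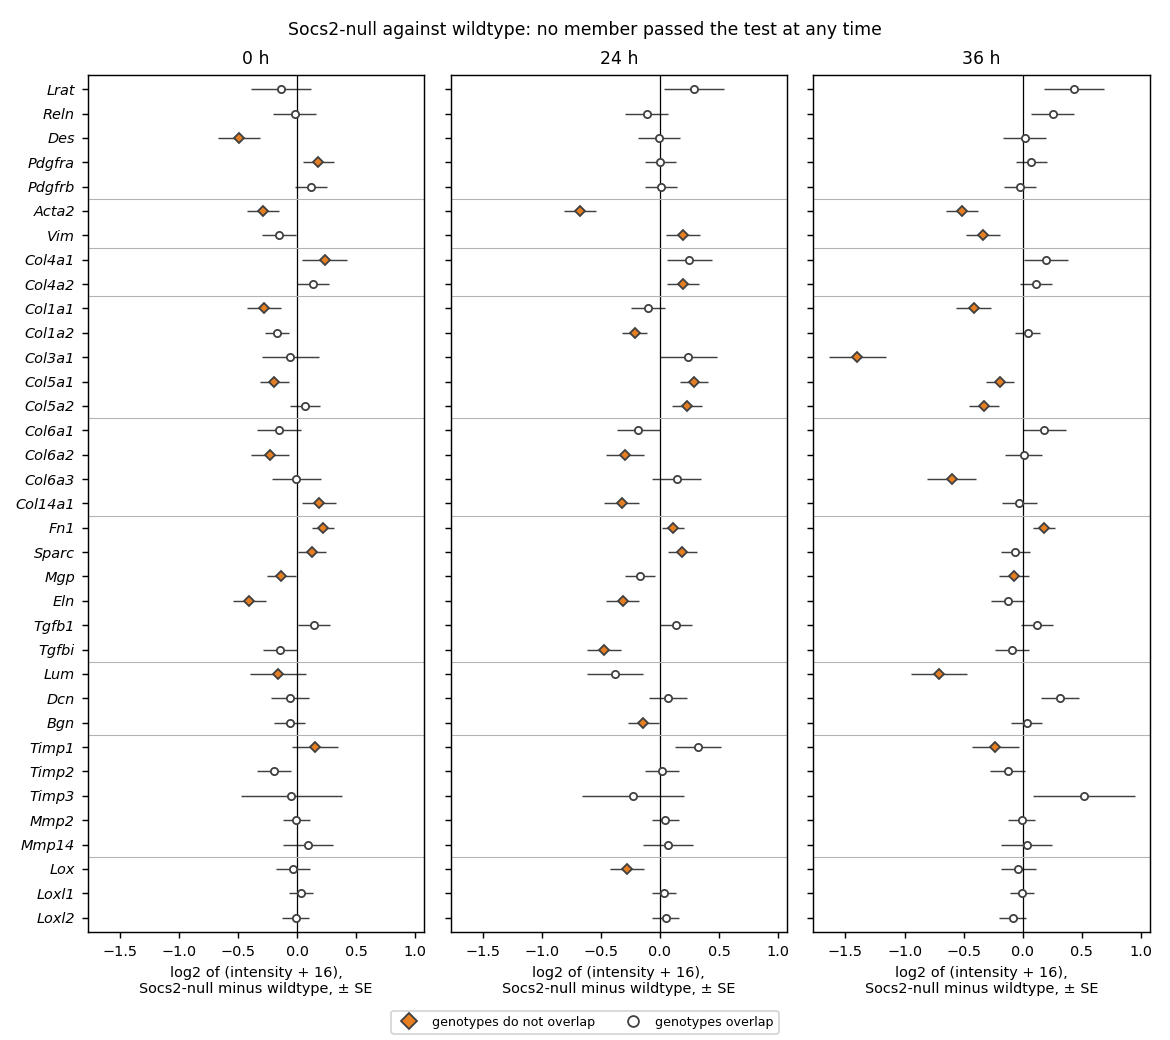
Socs2-null minus wildtype difference of log2(intensity + 16) ± standard error for each of the 35 genes at 0, 24 and 36 h, with filled diamonds where the 2 arrays of each genotype do not overlap. Acta2 lies left of 0 in each panel, and Col3a1 lies farthest from 0 of all, at -1.40 at 36 h; no gene passed the test.

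Acta2 and Col3a1 had the lowest adjusted p of these comparisons. Acta2 was lower in Socs2-null liver, with a Socs2-null minus wildtype difference of -0.29 ± 0.14 at 0 h, -0.67 ± 0.14 at 24 h and -0.52 ± 0.14 at 36 h, and of -0.49 ± 0.078 averaged over the times, which did not pass the test (adjusted p = 0.0879). It passed the test without Socs2-null 24 h replicate 1 (adjusted p = 0.0389), and with the other, dim probe set of Acta2 the difference was 0.14 (adjusted p = 0.673). The summed intensity of 4 vascular smooth muscle markers, given further on, was also lower in Socs2-null than in wildtype liver at 0 h. At 24 h and 36 h, where the Acta2 differences were larger, the sums of the genotypes overlapped. The part of these markers in the Acta2 values was not tested.

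Col3a1 read 225 and 347 in Socs2-null and 712 and 822 in wildtype liver at 36 h, a difference of -1.40 ± 0.24 (adjusted p = 0.149). The adjusted p was 0.029 without either of the Socs2-null 24 h arrays, which changes the estimate of the spread but not the difference, and reached 0.467 over all alternatives. The second, dimmer Col3a1 probe set read 34.5 and 41.5 in Socs2-null and 53.5 and 62.2 in wildtype liver at 36 h, in the same order. Both Socs2-null arrays were also below both wildtype arrays at 36 h for Lum, Col6a3, Col1a1, Col5a2, Col5a1, Mgp and Timp1 besides Acta2 and Vim, and none of these passed the test. The differences were, for Lum, -0.71 ± 0.23 (adjusted p = 0.61), for Col6a3 -0.60 ± 0.21 (adjusted p = 0.642), for Col1a1 -0.42 ± 0.14 (adjusted p = 0.642) and for Col5a2 -0.33 ± 0.13 (adjusted p = 0.696). Those of Col5a1, Mgp and Timp1 were -0.19, -0.073 and -0.23 (adjusted p = 0.858, 0.956 and 0.907). Elastin (Eln) was also lower in Socs2-null liver without overlap, at -0.40 ± 0.14 at 0 h and -0.32 ± 0.14 at 24 h (adjusted p = 0.925 and 0.595). The second, dim Eln probe set, above background on 7 of 12 arrays, did not share this order. Its genotypes overlapped at 0 h, and at 24 h it read 37.6 and 38.8 in Socs2-null and 31.8 and 33.8 in wildtype liver. At 24 h Tgfbi was also lower in Socs2-null liver, with 235 and 284 in Socs2-null and 355 and 375 in wildtype liver. This difference of -0.47 did not pass the test, and at 0 h and 36 h the genotypes overlapped on this probe set. On the other Tgfbi probe set, above background on all 12 arrays, Socs2-null was lower without overlap at 24 h and also at 0 h. At 0 h it read 140 and 156 in Socs2-null and 229 and 209 in wildtype liver. At 36 h the genotypes overlapped there too. Fn1 was higher in Socs2-null liver, by 0.17 ± 0.054 averaged over the times, and did not pass either (adjusted p = 0.332).

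Markers of other cells were read over the same times, and their part in the results above was not tested. The counts that follow stand beside 17.6% of all genes higher and 25.6% lower at 24 h, and 14.4% higher and 19.4% lower at 36 h. The summed intensity of the 14 stellate markers was 2725 to 3084 in Socs2-null and 2918 to 2979 in wildtype liver at 0 h, 2055 to 2169.8 in Socs2-null and 2139.7 to 2140.2 in wildtype liver at 24 h and 1947 to 2159 in Socs2-null and 1407 to 1911 in wildtype liver at 36 h, so every array after hepatectomy was below those at 0 h. The 4 vascular smooth muscle markers, of which 1 was higher and 1 lower at each time, summed to 171 to 201 in Socs2-null and 221 to 231 in wildtype liver at 0 h, 167 to 187 in Socs2-null and 187 to 191 in wildtype liver at 24 h and 178 to 195 in Socs2-null and 191 to 192 in wildtype liver at 36 h. Portal fibroblast and mesothelial markers, 7 measured with Fbln2, Gpm6a and Cd34 under background on all arrays, had 0 higher and 3 lower at 24 h and 0 called at 36 h. Their sums were 264 to 280.1 in Socs2-null and 286 to 314 in wildtype liver at 0 h, 230.2 to 237 in Socs2-null and 255 to 261 in wildtype liver at 24 h and 269 to 284 in Socs2-null and 262 to 263 in wildtype liver at 36 h.

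Sinusoidal endothelial markers, 8 measured, had 12.5% called at 24 h and 50% at 36 h, against 43.2% and 33.8% of all genes. They had 1 lower at 24 h and 1 higher and 3 lower at 36 h, and summed to 3213 to 3406 in Socs2-null and 3091 to 3093 in wildtype liver at 0 h, 2889.9 to 2984 in Socs2-null and 2913 to 3072 in wildtype liver at 24 h and 2619 to 2669 in Socs2-null and 2247 to 2497 in wildtype liver at 36 h. Macrophage markers, 10 measured, were called at 60.0% and 50%, against the same shares of all genes. They had 2 higher and 4 lower at 24 h and 2 higher and 3 lower at 36 h, and summed to 4891 to 5116 in Socs2-null and 4213 to 4716 in wildtype liver at 0 h, 4489 to 5642 in Socs2-null and 4423 to 4708 in wildtype liver at 24 h and 4742 to 6044 in Socs2-null and 4674 to 4783 in wildtype liver at 36 h. Neutrophil and platelet markers, 5 measured, had 3 higher and 1 lower at 24 h and 2 higher and 1 lower at 36 h, and reached a sum of 1855 on 1 Socs2-null array at 24 h against at most 558 on any array of the other groups. Cholangiocyte markers, 5 measured with Cftr under background on all arrays, had 1 lower at 24 h and 0 called at 36 h. Hepatocyte markers, 8 measured, had 1 higher and 4 lower at 24 h and 2 higher and 4 lower at 36 h, and proliferation markers, 5 measured, had 4 higher at 24 h and 2 at 36 h, and none lower.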

How the data were processed

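Livers of Socs2-null and wildtype mice at 3 times were measured on 12 arrays, 2 pools of 3 animals a group. The values are linear intensities of 45141 probe sets as the authors deposited them; background correction, summarization and normalization of these intensities are not stated in the labels or headers. Values ran from 1 to 24717. Of the probe sets, 28898 name 1 gene, 551 several and 15588 none, and 104 are controls. A gene was read from its probe set of highest mean log2(intensity + 16), giving 17097 genes with no filter on low values.

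A model of 6 group means was fitted to log2(intensity + 16) over all genes in limma 3.58.1 (R 4.3.3, statmod 1.5.0) with trended, robust empirical Bayes and 6 residual degrees of freedom. In each of 13 comparisons the two-sided p-values were adjusted over all genes by the Benjamini-Hochberg method, at a threshold of 0.05; the method was tested on simulated data. Each p-value sets a difference of group means against the spread between pools, estimated over all 6 groups. An "at least" fold is given where no array of the dim group was above background. It sets the brighter mean against the background, the brightest tag control, of each array of the dim group. Promoter windows came from RefSeq; Python 3.11.15 and matplotlib 3.10.9 made the summaries and figures.

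The genes and lists were chosen with earlier results of these data known. The 16 genes with the smallest adjusted p in any comparison are given array by array, other genes by range and change; of each further list, up to 4 genes with the smallest p are named. Alternatives were 10 other settings and leaving out each of the 12 arrays. Replicate numbers were not used as pairs: over 15 pairs of groups the correlation of same-numbered deviations ran from -0.499 to 0.347.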

Additional observations from a re-analysis of the deposited data

Results flagged for a closer look

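For 2 genes the change at 36 h against 0 h ran in opposite directions in the genotypes, with both Socs2-null arrays below and both wildtype arrays above their own 0 h arrays. For Col3a1 the Socs2-null minus wildtype difference of the log2 changes was -1.35 ± 0.34, and limma's test of that difference over all genes gave an adjusted p of 0.999. For Col6a3 the difference was -0.59 ± 0.29, again with an adjusted p of 0.999. Neither difference passed the test, and no other measured gene of the set showed such opposite changes at 24 h or 36 h.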

How the results depend on the processing

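Of 82 calls of the 16 genes described array by array, 49 kept direction and call under every alternative tried, 30 were lost under at least 1 and 4 reversed. The reversals were all of Acta2 without cross-hybridizing probe sets, which left a probe set above background on 1 array: the log2 changes were -0.16 in Socs2-null and -0.28 in wildtype liver at 24 h, -0.22 averaged at 24 h and -0.018 in Socs2-null liver at 36 h. The averaged genotype difference of Acta2, not called, also turned, to 0.14. The count of 1 gene between 36 h and 24 h was 0 under quantile normalization, centring on the array median, without the dimmest genes, with the mean of all probe sets, with plain empirical Bayes, with a replicate block and with only the arrays compared.

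Leaving out 1 array moved the counts to 0 to 1 for the genotypes at 36 h and averaged, 9 to 14 in Socs2-null and 7 to 16 in wildtype liver at 24 h, 9 to 13 in Socs2-null and 8 to 17 in wildtype liver at 36 h, 17 to 20 and 14 to 20 averaged at 24 h and 36 h, and 0 to 2 between 36 h and 24 h. The replicate numbers do not pair the samples; with a replicate block the averaged counts were 19 at 24 h and 18 at 36 h. The cause of these shifts was not tested beyond the smaller number of arrays. A fit without 1 array leaves 1 array in its group. The share of all genes called in such a fit is not given here, so these ranges describe no trait of this set. Dim genes near background limit what can be read of Col1a1, Col1a2, Pdgfra, Mmp2, Tgfb1, Lox and Loxl1, and 2 pools a group limit every genotype comparison.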

Other observations

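Some genes differed between the 2 pools of a group by as much as between groups, and the following were chosen after their values were seen. Timp3 read 157 and 314 in Socs2-null and 390.4 and 177 in wildtype liver at 24 h, and 434 and 193 in Socs2-null liver at 36 h. Ccn2, a secreted matricellular protein that TGF-beta induces, read 175 and 324 in Socs2-null and 1062 and 497 in wildtype liver at 24 h, and 621 and 166 in Socs2-null liver at 36 h. In these 3 groups the pool that was higher for Timp3 was also the higher one for Ccn2. In the remaining groups, where the Timp3 pools lay closer together, the order of Ccn2 was the opposite. Col3a1 and Lum had the opposite order to Timp3 in each of the 3 groups named. In Socs2-null liver at 24 h, for example, Col3a1 read 447 and 261 and Lum 138 and 78.8.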
